A study of Mus musculus with 12 samples.

Results

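Genes of the cytoskeleton, the nuclear lamina, the galectins and the annexins were followed across sorted mouse invariant natural killer T (iNKT) cells: Vim, Ahnak, Lgals1, Lgals3, Anxa2, Anxa6, Lmna, Crip1 and Efhd2. They are 9 of the 24781 gene symbols in the deposited table, and they were chosen by symbol with earlier results of these same libraries known, so their differences are given below as descriptions with standard errors and no p-value, and counts of them past a threshold of the fit across all genes are not evidence. iNKT cells are T cells that carry a semi-invariant T cell receptor and recognise lipids presented by CD1d. All cells were sorted as TCRbeta+, NK1.1+, CD1d tetramer-positive and CXCR6+ from mice of 6 weeks, 100 cells to a library, and the groups were lung CD244+, lung CD244-, thymus CD244+ and thymus CD244- cells, with 3 libraries each. CD244 (2B4) is a receptor of the SLAM family that natural killer cells carry, and CXCR6 is a chemokine receptor of tissue-resident lymphocytes. The strain of the mice and whether libraries of a group came from different animals are not given in the sources used here, so any p-value measures only the spread between these libraries, which may be technical.

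The proteins act in the cytoskeleton, at membranes or in the nuclear lamina. Vimentin (Vim) forms the intermediate filaments of leukocytes and mesenchymal cells and is part of the cage that a lymphocyte collapses when it becomes motile, and lamin A/C (Lmna) is the intermediate filament protein of the nuclear lamina. AHNAK (Ahnak) is a very large scaffold under the plasma membrane that binds annexin A2 with its partner S100A10 and takes part in calcium entry in T cells. Annexins A2 and A6 (Anxa2, Anxa6) bind membranes when calcium rises. Galectins 1 and 3 (Lgals1, Lgals3) are secreted lectins that bind beta-galactosides and act on T cell survival and adhesion, and galectin 3 is also a long-used surface marker of macrophages. Crip1 encodes a small LIM-domain protein, and Efhd2 (swiprosin-1) a calcium-binding protein of the actin cytoskeleton. Vimentin, the galectins and annexin A2 are known to be higher in effector and memory T cells than in naive ones, and all of them are abundant in macrophages.

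All 9 genes are protein-coding, and each sits on a chromosome of its own in the mm10 build (GENCODE M21 annotation, whose coordinates are those of GRCm38). Vim lies at chr2:13573927-13582826 on the plus strand, Ahnak at chr19:8989284-9076914 on the plus strand, Lgals1 at chr15:78926725-78930465 on the plus strand and Lgals3 at chr14:47367751-47386160 on the plus strand. Anxa2 lies at chr9:69453620-69491795 on the plus strand and Crip1 at chr12:113146316-113153879 on the plus strand. The minus-strand genes are Anxa6 at chr11:54979108-55033445, Lmna at chr3:88480147-88509956 and Efhd2 at chr4:141858142-141874920.

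Promoter windows from RefSeq (GRCm38.p6) were matched for 7 of the 9 genes by symbol. Their annotated starts are those of RefSeq and can differ from the GENCODE bounds above. The Vim window lies inside the GENCODE bounds of its gene, and the Anxa2 window ends past the GENCODE start. The 250 bases before the annotated start are printed for Vim, the gene with the largest difference between CD244+ and CD244- cells in both tissues, for Ahnak, whose difference was larger in thymus than in lung, and for Anxa2, whose window was the only one of the 8 windows (Lmna has 2) with the AP-1 letters TGANTCA. Capitals mark letters that match, on either strand, TGANTCA for AP-1, GGGCGG for a GC box, CACCC for a CACCC box or TATAAA for a TATA box; each of these windows is on the plus strand of its chromosome.
Vim, chr2:13574061-13574310: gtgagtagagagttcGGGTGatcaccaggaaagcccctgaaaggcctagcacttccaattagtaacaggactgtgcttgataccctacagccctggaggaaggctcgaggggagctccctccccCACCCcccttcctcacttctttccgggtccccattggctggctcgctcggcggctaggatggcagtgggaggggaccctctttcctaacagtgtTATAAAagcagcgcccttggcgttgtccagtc
Ahnak, chr19:8989034-8989283: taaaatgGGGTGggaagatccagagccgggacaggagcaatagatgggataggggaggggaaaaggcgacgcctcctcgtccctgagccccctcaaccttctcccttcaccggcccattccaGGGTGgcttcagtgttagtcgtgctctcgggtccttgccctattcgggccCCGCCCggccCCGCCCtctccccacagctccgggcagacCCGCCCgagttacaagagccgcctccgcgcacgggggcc
Anxa2, chr9:69453433-69453682: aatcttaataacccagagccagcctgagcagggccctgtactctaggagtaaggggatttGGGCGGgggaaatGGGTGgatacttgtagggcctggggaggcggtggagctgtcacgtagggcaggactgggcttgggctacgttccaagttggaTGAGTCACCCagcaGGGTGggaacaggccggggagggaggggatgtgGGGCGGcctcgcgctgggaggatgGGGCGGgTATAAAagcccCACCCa
Vim held 1 TATAAA and 2 CACCC matches, and Ahnak held 3 GC boxes and 2 CACCC matches with no TATAAA. In Anxa2 there were 3 GC boxes, 4 CACCC matches, 1 TATAAA and 1 AP-1 match, TGAGTCA, whose last letters overlap a CACCC. Among 32851 mouse windows of the same length, TGANTCA was found in 6.75%, GGGCGG in 32.7%, CACCC in 52.0% and TATAAA in 12.4%, so these matches describe the sequences and show no binding.

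The deposited values are molecules multiplied by a constant of each library, called units here. Every lung library sums to 19342.9 units and every thymus library to 26890.5 units, so a difference between tissues depends on that scale, and shares per 10000 molecules are given beside it. Depth ran from 42520 to 51436 molecules in lung CD244+, 29696 to 32196 in lung CD244-, 56615 to 71789 in thymus CD244+ and 60120 to 67478 in thymus CD244- libraries. The limit that a count of 0 allows, 3 molecules, corresponds to 1.13 to 1.36, 1.80 to 1.95, 1.12 to 1.42 and 1.20 to 1.34 units in these groups. Before the results, the lung CD244+ libraries need describing. They held 1, 1 and 0 molecules of Cd244, against 0 in every lung CD244- library, and 15, 1 and 1 molecules of Cxcr6, a gene used to sort the cells, against 10, 13 and 15 in lung CD244-. Thymus CD244+ libraries held 8, 1 and 4 molecules of Cd244, against 0 in every thymus CD244- library. Cxcr6 had 31, 27 and 43 molecules in thymus CD244+, against 43, 26 and 27 in thymus CD244-. Libraries 2 and 3 of lung CD244+ therefore stand apart from all other libraries in Cxcr6, and the replicates of that group differed among themselves by 1.65 to 1.70 times the sampling noise (chi-square over its degrees of freedom), more than the 1.09 to 1.23 of the other groups.

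The same lung CD244+ libraries held macrophage and MHC class II marker transcripts. The 16 macrophage markers summed to 74.3, 131 and 131 per 10000 molecules in lung CD244+ libraries, against 0.155 to 1.99 in lung CD244-, and to 0.883 to 1.39 in thymus CD244+, against 0.445 to 0.665 in thymus CD244-. All 16 were detected in lung CD244+, while 11, 12 and 13 of the 16 were at 0 in lung CD244-, thymus CD244+ and thymus CD244-, the complement genes C1qa, C1qb and C1qc, Lyz2, Mrc1, Cd14, Apoe, Adgre1 and Marco in each of these groups. Of the 14 markers that could be tested, 14 were higher in lung CD244+ than in lung CD244- (limma, Benjamini-Hochberg adjusted p under 0.05). Among all genes tested 5.61% were. Between the thymus groups 0 of the 14 differed, where 0.331% of all genes were higher and 0.0779% lower in CD244+. Markers at 0 in every other group passed the filter on low values only through lung CD244+. They had to be higher there and could not differ in thymus, so nothing is read from these counts. Genes of MHC class II and B cells summed to 48.9, 71.1 and 126 per 10000 in lung CD244+, against 0.332 to 0.621 in lung CD244-. A T cell list of 12 genes, of which 11 are in the table (not Trac), summed to 24.2, 12.9 and 16.5 in lung CD244+, against 34.3 to 40.0 in lung CD244-. It holds the receptor chains Cd3e, Cd3d, Cd3g and Cd247, and the signalling and surface genes Lck, Zap70, Lat, Thy1, Cd2, Cd5 and Cd6. The list is called T cell receptor genes below, though most of it is not receptor chains. The natural killer cell list summed to 15.3, 18.3 and 4.08 per 10000 in lung CD244+, against 0.932 to 1.66 in lung CD244-. Most of it was Gzma, with 124 molecules against 4, and Klre1, with 34 against 7, followed by Klrb1b, with 13 against 1. Ncr1, Eomes and Klra8 had 1 molecule each in lung CD244+ and 0 in lung CD244-, so nothing about natural killer cells is read from the sum. Lists for dendritic cells, neutrophils, fibroblasts, endothelium and thymocytes stayed at or under 1.36 per 10000 in every library, and the epithelial list at or under 3.37.

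**Figure D1:**
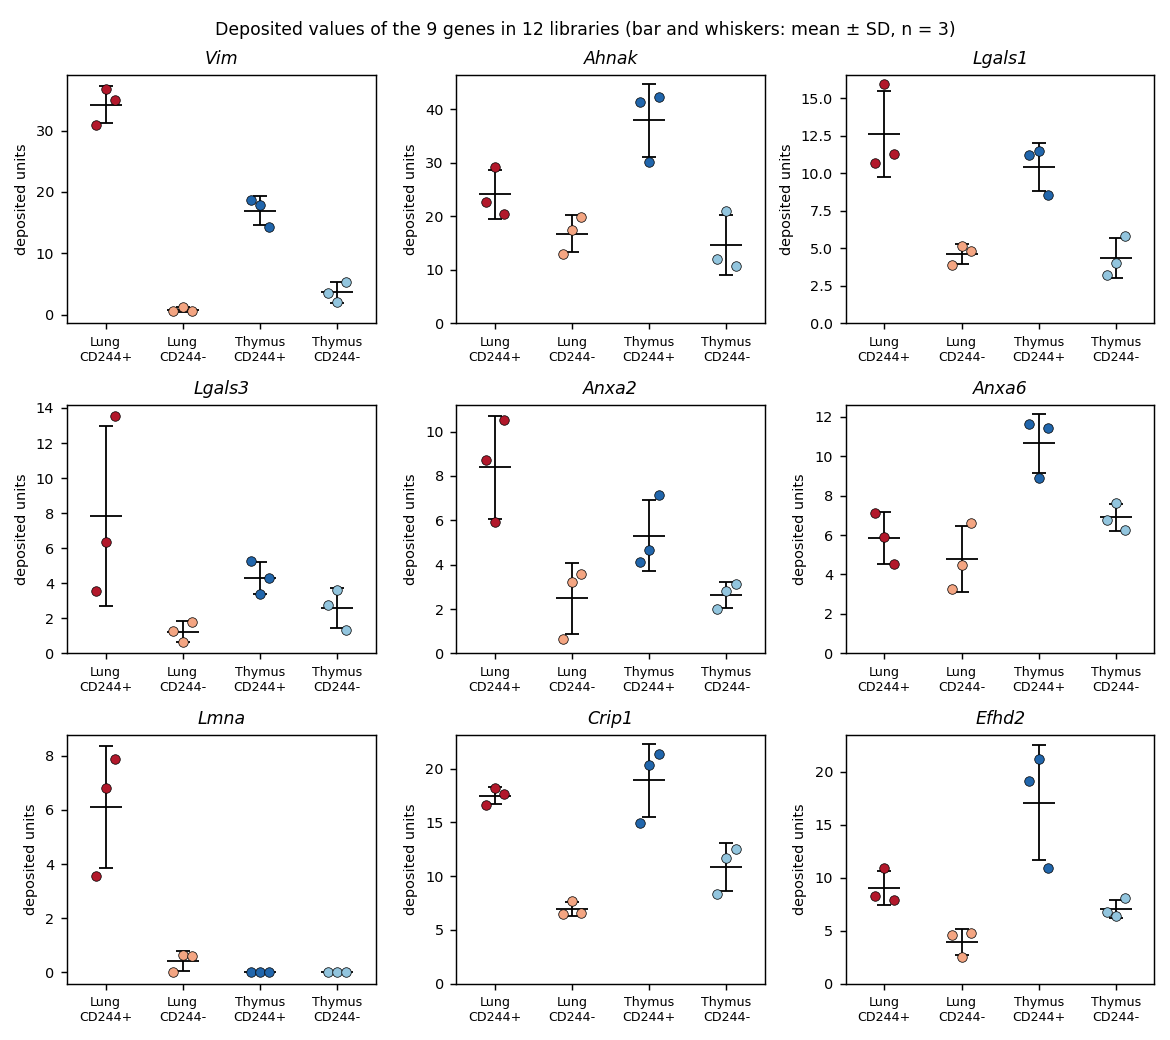
Level of each gene in units (molecules times a constant of the library) in lung CD244+, lung CD244-, thymus CD244+ and thymus CD244- libraries. Points are the 3 libraries of a group and bars are the mean with its SD; Vim separates all 4 groups, and Lmna is at or near 0 outside lung CD244+.

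Vim, the filament gene, differed most. It stood at 30.9, 36.8 and 35.0 units in lung CD244+ libraries, 0.651, 1.28 and 0.601 in lung CD244-, 18.7, 17.8 and 14.2 in thymus CD244+ and 3.59, 2.01 and 5.37 in thymus CD244-. No library of one group reached another's range, and the order was lung CD244+, thymus CD244+, thymus CD244-, lung CD244-. The log2 difference between CD244+ and CD244- cells was 4.27 ± 0.28 (SE) in lung and 2.0 ± 0.28 in thymus, on the log2(value + 1) scale. In molecules, lung CD244+ had 252 of Vim against 4 in lung CD244-, a ratio of shares of 40.6 with an exact 95% interval of 15.7 to 150, and thymus CD244+ had 122 against 26 in thymus CD244-, a ratio of 4.76 (3.10 to 7.57). These intervals cover counting error only, and in bulk libraries fewer cells of a type and less RNA per cell cannot be told apart. Lung CD244+ exceeded thymus CD244+ by 0.98 ± 0.28, and lung CD244- lay below thymus CD244- by a log2 difference of -1.29 ± 0.28, so that the CD244 difference in lung exceeded that in thymus by 2.27 ± 0.40.

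Lmna, the other filament gene, was seen almost only in lung CD244+. It measured 3.56, 6.82 and 7.90 units in lung CD244+ libraries (9, 15 and 21 molecules), 0, 0.642 and 0.601 in lung CD244- (0, 1 and 1 molecules) and 0 in each of the 6 thymus libraries. The gene passed the filter on low values only through lung CD244+, so it had to differ there. Its ratio of shares in lung CD244+ against lung CD244- was 14.5 (3.79 to 123, counting error only), and in lung CD244+ it was at least 20.1-fold higher than in thymus CD244+, taking 3 molecules summed over thymus CD244+ as the floor. Whether thymus cells of either kind express it cannot be seen at this depth.

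Among the membrane-associated genes, Ahnak showed the opposite tissue pattern. It stood at 22.6, 29.1 and 20.5 units in lung CD244+, 13.0, 17.3 and 19.8 in lung CD244-, 41.3, 30.1 and 42.3 in thymus CD244+ and 12, 21.0 and 10.7 in thymus CD244- libraries. Thymus CD244+ libraries were the highest, above lung CD244+, while lung CD244- and thymus CD244- overlapped. The CD244 difference was 0.50 ± 0.20 in lung and 1.36 ± 0.20 in thymus. Lung minus thymus, these contrasts differed by -0.86 ± 0.29. Per 10000 molecules, the ranges of lung CD244+ (12.4 ± 2.33, SD) and thymus CD244+ (14.1 ± 2.52) overlapped, and the ratio of shares was 0.876 (0.720 to 1.06).

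Anxa2 measured 8.71, 5.91 and 10.5 units in lung CD244+, 0.651, 3.21 and 3.60 in lung CD244-, 4.12, 4.66 and 7.12 in thymus CD244+ and 1.99, 2.82 and 3.13 in thymus CD244-. Every CD244+ library was above every CD244- library of its tissue, by 1.53 ± 0.35 in lung and 0.77 ± 0.35 in thymus, and the lowest lung CD244- library rested on 1 molecule. Anxa6 behaved differently. It measured 7.13, 5.91 and 4.51 units in lung CD244+, 3.26, 4.49 and 6.61 in lung CD244-, 11.6, 8.90 and 11.4 in thymus CD244+ and 6.77, 7.64 and 6.26 in thymus CD244-. The lung groups overlapped, with a difference of 0.27 ± 0.29, and in thymus CD244+ libraries were above CD244- ones by 0.56 ± 0.29. Thymus CD244+ stood above all other groups in units, with a lung minus thymus difference of -0.77 ± 0.29 in CD244+ cells; per 10000 molecules lung CD244+ and thymus CD244+ overlapped.

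The galectins were on average higher in CD244+ cells of both tissues, and Lgals3 with overlap in thymus. Lgals1 measured 10.7, 15.9 and 11.3 units in lung CD244+, 3.91, 5.13 and 4.81 in lung CD244-, 11.2, 11.4 and 8.55 in thymus CD244+ and 3.19, 4.02 and 5.81 in thymus CD244-. Its CD244+ groups did not reach the CD244- groups of either tissue, with differences of 1.27 ± 0.28 in lung and 1.11 ± 0.28 in thymus, and within CD244+ cells the tissues overlapped in units. Per 10000 molecules, lung CD244+ libraries lay above thymus CD244+ libraries for Lgals1, as they did for Anxa2 and Crip1. Lgals3 measured 3.56, 6.37 and 13.5 units in lung CD244+ (9, 14 and 36 molecules), 1.30, 0.642 and 1.80 in lung CD244-, 5.24, 3.39 and 4.27 in thymus CD244+ and 2.79, 3.62 and 1.34 in thymus CD244-. In lung its difference was 1.84 ± 0.37 with no overlap, and in thymus the groups overlapped and the difference was 0.61 ± 0.37. Its lung CD244+ libraries spread the most of the 9 genes, the highest being 3.80 times the lowest, where Vim spread 1.19 times and Crip1 1.09 times.

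Crip1 and Efhd2 followed the CD244 split in both tissues. Crip1 measured 16.6, 18.2 and 17.7 units in lung CD244+, 6.51, 7.70 and 6.61 in lung CD244-, 15.0, 20.3 and 21.4 in thymus CD244+ and 8.37, 11.7 and 12.5 in thymus CD244-. Efhd2 measured 8.31, 10.9 and 7.90 units in lung CD244+, 4.56, 2.57 and 4.81 in lung CD244-, 19.1, 21.2 and 10.9 in thymus CD244+ and 6.77, 6.43 and 8.05 in thymus CD244-. Neither gene's CD244+ libraries overlapped its CD244- libraries within a tissue: the differences were 1.22 ± 0.23 (lung) and 0.75 ± 0.23 (thymus) for Crip1, and 1.03 ± 0.28 (lung) and 1.12 ± 0.28 (thymus) for Efhd2. Efhd2 was higher in thymus than in lung in both fractions in units, with lung minus thymus of -0.81 ± 0.28 in CD244+ and -0.73 ± 0.28 in CD244- cells; per 10000 molecules those ranges overlapped.

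**Figure D2:**
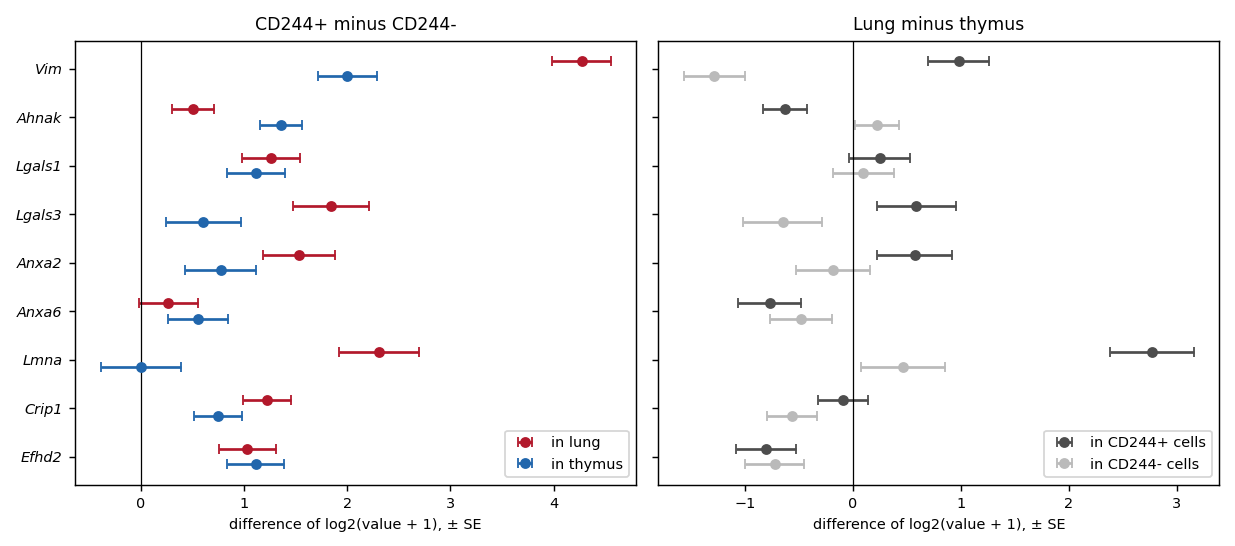
Log2 differences of the 9 genes with their SE on the log2(value + 1) scale; the left panel gives CD244+ minus CD244- in lung and thymus, the right panel lung minus thymus in CD244+ and CD244- cells. Vim lies at 4.27 in lung and 2.0 in thymus on the left, and Vim and Lmna lie highest on the right in CD244+ cells.

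Summed over the 9 genes, molecules per 10000 were 64.9 ± 6.36 (SD, n = 3) in lung CD244+, 21.7 ± 4.0 in lung CD244-, 45.2 ± 1.63 in thymus CD244+ and 19.6 ± 2.57 in thymus CD244-. In the fit across 5138 genes (limma, Benjamini-Hochberg adjusted p under 0.05), 7 of the 9 (all but Ahnak and Anxa6) were higher in lung CD244+ than lung CD244- cells, where 5.61% of all genes tested were. In thymus 4 of 9 (Vim, Ahnak, Lgals1 and Efhd2) were higher in CD244+ cells, where 0.331% were. None of the 9 was lower in lung (2.82% of all genes) or in thymus (0.0779%). In CD244+ cells 2 of 9 (Vim and Lmna) were higher in lung than thymus (5.27% of all genes) and 2 of 9 (Ahnak and Efhd2) lower (9.61%); in CD244- cells 0 were higher (2.18%) and 1, Vim, lower (8.52%). The difference between the lung and thymus CD244 contrasts passed for 2 of 9, Vim and Lmna, in the higher direction (2.65%) and for 0 in the lower one (0.623%). Because the genes were chosen on these libraries, nothing is read from their excess over those shares, and the comparisons share libraries with each other. The median CD244 difference of the 9 genes was 1.27 in lung, beside -0.01 over all genes tested, and 0.77 in thymus, beside -0.02. For lung minus thymus it was 0.25 in CD244+ cells, beside -0.27, and -0.49 in CD244- cells, beside -0.29. Without Lmna these medians were 1.24, 0.94, 0.08 and -0.52 in the same order. CD244+ libraries all lay above CD244- ones for 8 of 9 genes in lung (11.6% of all genes) and 7 of 9 in thymus (5.47%). They all lay below for 0 in lung (9.75%) and 0 in thymus (6.42%). Lung libraries all lay above thymus libraries for 2 of 9 in CD244+ (8.41%) and 0 in CD244- cells (4.75%), and all below for 3 in CD244+ (21.8%) and 3 in CD244- cells (20.7%).

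Several of these counts moved with a library or the scaling. Leaving out any 1 thymus library reduced the thymus count to 2 or 3 of 9, with Vim and Ahnak past the threshold each time. On recovered molecules of 9 libraries edgeR called Vim, Ahnak and Crip1 of 7 tested genes in thymus, and DESeq2 called Ahnak alone of 9. These 9 libraries leave out lung CD244+ library 2, thymus CD244+ library 1 and thymus CD244- library 2. The method and the missing libraries therefore cannot be told apart in edgeR and DESeq2. In lung edgeR called 5 of 7 (Vim, Lgals1, Anxa2, Crip1 and Efhd2) and DESeq2 4 of 9 (Vim, Lgals3, Anxa2 and Crip1), and Efhd2 no longer passed in limma without lung CD244+ library 2 or without lung CD244- library 2. Lmna was below the filter, and so untested, whenever a lung CD244+ library was left out. With lung CD244+ libraries 2 and 3 both left out, a choice made after their Cxcr6 counts were seen, 1 library stands for its group and is assumed to vary like the other groups, so a lost call may reflect the single library and shows no dependence on libraries 2 and 3. Vim and Crip1 of 8 tested genes then passed in lung, with a median difference of 1.06 over the 8, and 0 passed for lung against thymus in CD244+ cells. In library 1 itself all 9 genes stood above all 3 lung CD244- libraries. The share of all genes that did so was not computed, so nothing is read from the 9 of 9. For lung against thymus in CD244+ cells, the count of 4 fell to 2, 2 and 1 of 8 without lung CD244+ library 1, 2 or 3, and to 2 of 9 without thymus CD244+ library 1 or 3. Ahnak and Efhd2 no longer passed once every library was set to one total, while Vim and Lmna did. Scaling each library to its T cell receptor genes put the median of all genes at 0.48, against -0.27, in that comparison, and with it Ahnak (0.54), Anxa6 (0.31), Efhd2 (0.32) and Crip1 (1.07) lay above 0. Crip1, at -0.09, also lay above 0 with quantile normalization, one total, edgeR and DESeq2. For lung against thymus in CD244- cells, Ahnak passed as higher with one total, in edgeR and in DESeq2, while Vim passed as lower with one total and in edgeR, and not in DESeq2. Neither passed there with T cell receptor scaling. With a stricter filter (values over 5 units in at least 3 libraries) Vim, Crip1 and Efhd2 of 8 tested genes passed as lower. Of all 922 genes tested with that filter 315 did, so nothing is read from the count. Anxa2, at -0.19 in that comparison, lay above 0 with quantile normalization, one total and T cell receptor scaling, and in edgeR and DESeq2.

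**Figure D3:**
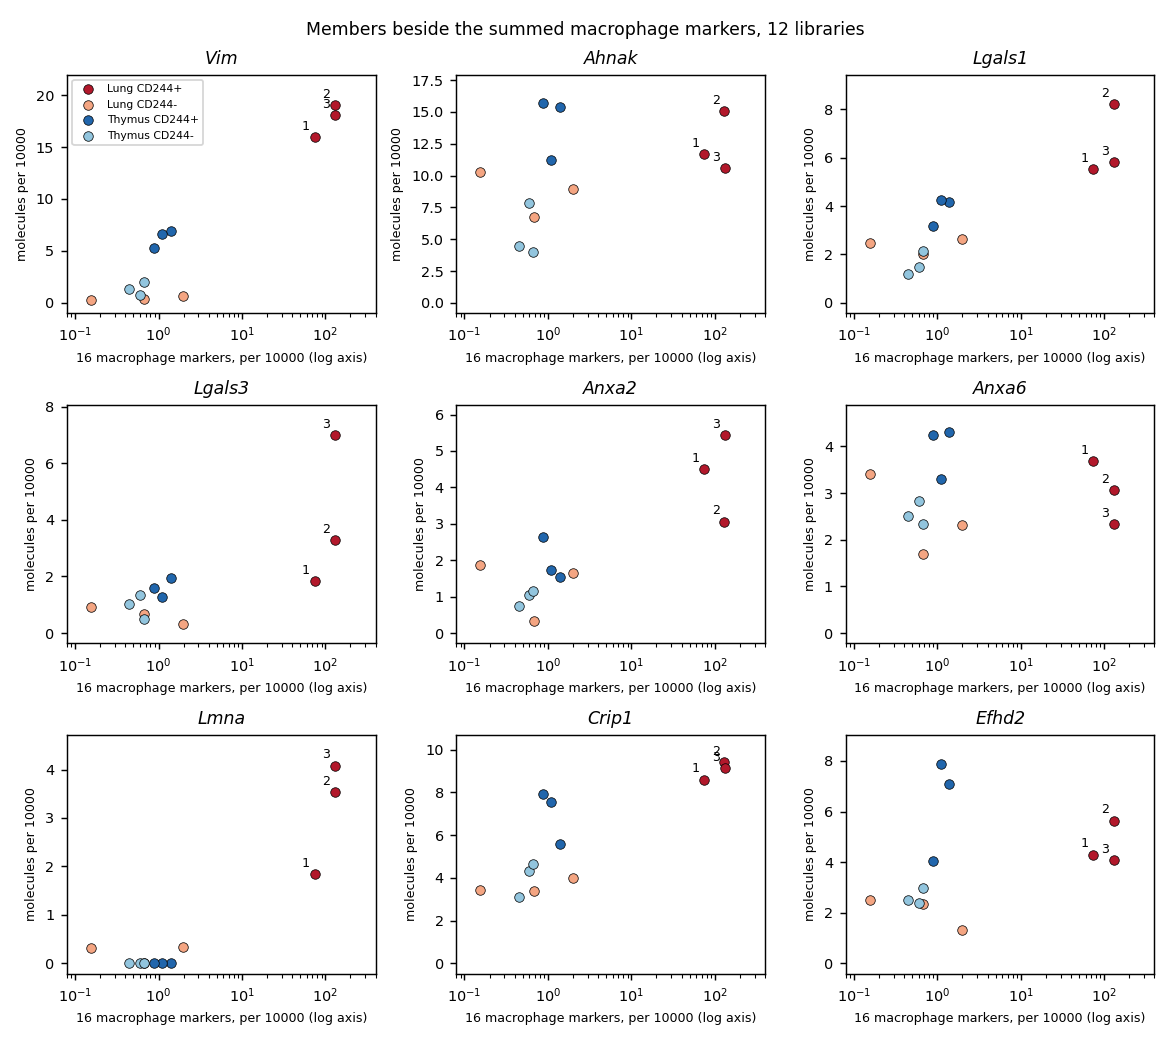
Molecules per 10000 of each gene (vertical axis) against the summed 16 macrophage markers per 10000 (horizontal, log axis), 1 point per library, lung CD244+ libraries numbered. Lung CD244+ libraries lie at 74.3, 131 and 131 on the horizontal axis and all others at 1.99 or less.

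The macrophage markers set the values of these genes in context. In thymus the macrophage markers summed to 0.883 to 1.39 per 10000 in CD244+ libraries and 0.445 to 0.665 in CD244- ones, without overlap. Of the 16 markers, 12 were at 0 in thymus CD244+ and 13 in thymus CD244-. Ctss had 12 molecules in thymus CD244+ against 8 in thymus CD244-, Tyrobp 7 against 2, Fcgr3 2 against 1 and Cd68 1 against 0. In the same libraries Vim was higher in CD244+ cells by 2.0, Ahnak by 1.36, Lgals1 by 1.11 and Efhd2 by 1.12. The natural killer cell list moved with the same thymus contrast, at 8.89 to 9.56 per 10000 in CD244+, against 1.47 to 1.80 in CD244- libraries. In that list Gzma had 98 molecules against 3, Klre1 67 against 22 and Klrb1b 10 against 5. Ncr1 had 0 in both thymus groups, Eomes 1 against 0 and Klra8 0 against 2. The part of these genes was not tested. In lung the contrast came with macrophage RNA in every CD244+ library. The library lowest in macrophage markers, lung CD244+ library 1, held the lowest share of the 3 for Vim, Lgals1, Lgals3, Lmna and Crip1, 5 of 9 genes, and the highest for Anxa6. For Vim and Crip1 the highest of these libraries was only 1.19 and 1.09 times the lowest. The share of all genes that were lowest in library 1 was not computed, so nothing is read from the 5 of 9. Over the whole list, 0 of the 16 markers had their highest share of the 3 lung CD244+ libraries in library 1, 7 in library 2 (C1qa, C1qb, C1qc, Mrc1, Apoe, Csf1r and Tyrobp) and 9 in library 3 (Lyz2, Cd14, Adgre1, Cd68, Ctss, Marco, Ear2, Chil3 and Fcgr3). Lung CD244- libraries, with 1.99 per 10000 or less, held Vim at 0.845 ± 0.380 units (SD, n = 3) and Lmna at 0.414 ± 0.359. The part of macrophage RNA in the lung and thymus values was not tested.

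By likeness of profile, the 3 genes nearest each of the 9 were taken over the 12 libraries as the root mean square difference of log2(value + 1) after each gene was centred on its own mean. Nearest to Vim were Fcer1g (0.62), which natural killer cells and macrophages express, Ms4a6c (0.89) and Ctss (0.91), the last on the macrophage marker list. Fcer1g averaged 10.4 units in lung CD244+, 0.628 in lung CD244-, 10.1 in thymus CD244+ and 1.41 in thymus CD244-. Ctss averaged 14.1, 0.428, 1.65 and 1.13 in the same groups. Nearest to Lmna were Socs3 (0.20), Fosb (0.23) and Ccl9 (0.26). For Ahnak they were Pptc7 (0.31), Bcas2 (0.33) and Lnpep (0.34), for Lgals1 Fam129b (0.32), H2afz (0.34) and Ifitm3 (0.35), and for Lgals3 Cdk6 (0.37), Fam129b (0.42) and Ehd1 (0.42). For Anxa2 they were Atp1b1 (0.32), Ifitm3 (0.38) and Fam129b (0.39), and for Anxa6 Ino80d (0.14), Trip4 (0.19) and Abcf3 (0.20). For Crip1 they were Mfsd1 (0.29), Raph1 (0.30) and Papd5 (0.30), and for Efhd2 Pdgfb (0.35), Aprt (0.36) and Synj2bp (0.36). Some of these neighbours averaged near or under the units of 3 molecules. Fam129b stood at 1.73 in lung CD244+, 0 in lung CD244-, 0.849 in thymus CD244+ and 0 in thymus CD244-, and Pdgfb at 0.561, 0, 1.54 and 0.133. Others did not, such as H2afz at 9.30, 4.16, 7.72 and 4.36. The nearest to Vim was Lgals1 at 1.14 among the 9, and nothing about shared control is read from these distances.

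Relatives of the 9 genes were read from a list of 61, of which 60 are in the table and 24 were above the filter: other annexins, their S100 partners, galectins, intermediate filament linkers, lamina and nuclear envelope proteins, membrane-repair calpains and LIM proteins. The list was drawn up with earlier results of these data known, so the p-values of its genes are descriptive. Between lung CD244+ and lung CD244- cells 1 of the 24 was higher in CD244+ (5.61% of all genes tested) and 3 were lower (2.82%). Anxa5, the phosphatidylserine-binding annexin, was higher in lung CD244+ cells, at 4.48 ± 1.14 units (SD, n = 3), against 1.28 ± 1.15 in lung CD244- (log2 difference 1.35 ± 0.40, limma adjusted p = 0.0156). Lbr, the lamin B receptor, averaged 1.99 ± 1.13 units in lung CD244+, against 5.44 ± 1.43 in lung CD244- (-1.16 ± 0.35, limma adjusted p = 0.0215). Sun2, a protein of the nuclear envelope that couples the lamina to the cytoskeleton, averaged 2.01 ± 1.0 units in lung CD244+, against 5.94 ± 2.03 in lung CD244- (-1.21 ± 0.34, limma adjusted p = 0.0122). Csrp1, a LIM protein, averaged 0.554 ± 0.486 units in lung CD244+, against 2.51 ± 0.546 in lung CD244- (-1.22 ± 0.39, limma adjusted p = 0.0339). Between thymus CD244+ and thymus CD244- cells 0 of the 24 passed in either direction in limma, 0 of 8 tested in edgeR and 0 of 38 in DESeq2, with 305 of 5138 genes at an unadjusted p under 0.05 in limma.

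These 4 calls rested on few molecules and moved with single libraries. Without lung CD244+ library 2 none of the 4 passed (limma adjusted p of 0.0560 to 0.223), with log2 differences of 1.27 for Anxa5, -0.87 for Lbr, -1.06 for Sun2 and -1.40 for Csrp1. Without library 3 none passed (limma adjusted p of 0.0651 to 0.120), with differences of 1.24, -1.17, -1.10 and -1.33 for the same genes. Without lung CD244+ library 1 all but Csrp1 passed. Without lung CD244- library 1 Anxa5 alone of the 4 passed, without library 2 Lbr and Csrp1, and without library 3 Sun2 alone. DESeq2 called 0 of the 4 and edgeR 0 of the 2 it tested (Lbr and Sun2). Both were run without lung CD244+ library 2, so the method and that library cannot be told apart there. Scaling to T cell receptor genes kept Anxa5 alone of the 4. The macrophage markers and the lower sum of the T cell list given above moved with the same libraries, and their part in these 4 genes was not tested.

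**Figure D4:**
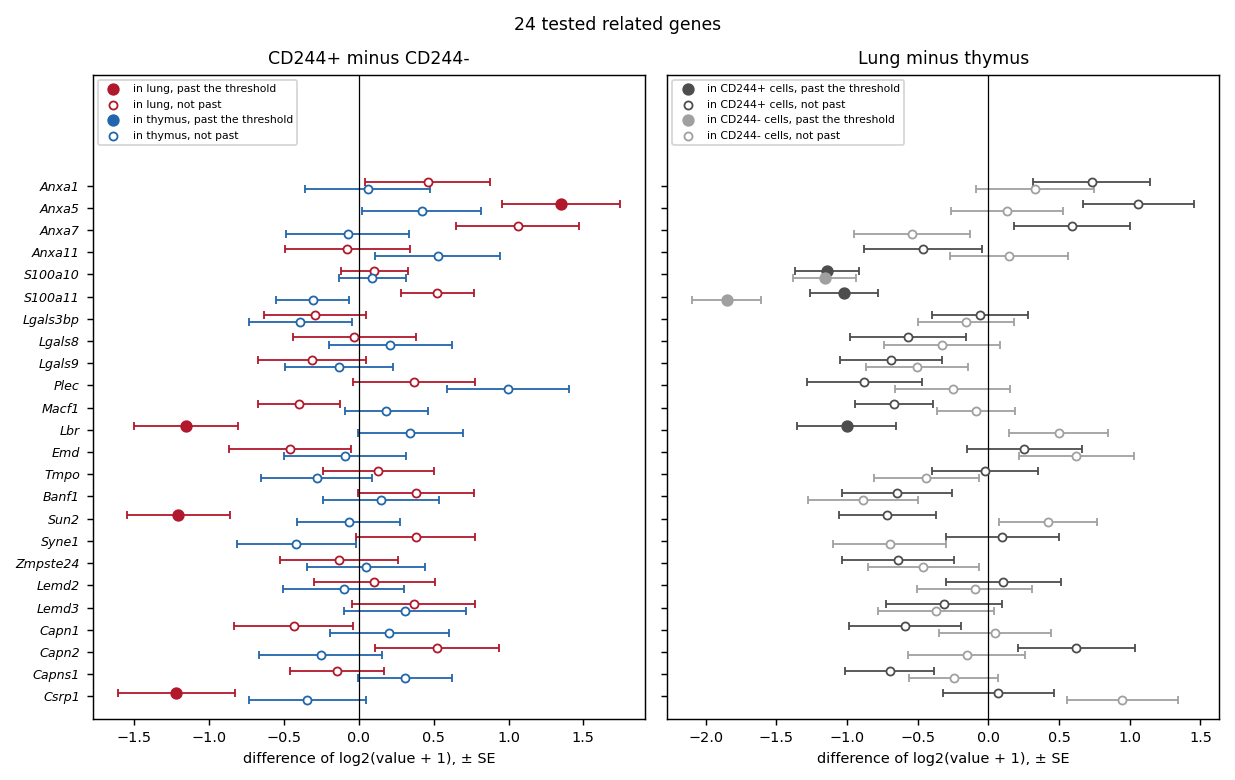
Log2 differences of the 24 tested relatives in each comparison with their SE; filled points passed an adjusted p of 0.05 in limma. S100a10 and S100a11 lie below 0 in lung against thymus in both fractions.

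Between tissues, S100a10 and S100a11, which encode the S100 partners of annexins, were lower in lung than in thymus in both fractions. S100a10 averaged 11 ± 3.48 units in lung CD244+, against 25.0 ± 5.05 in thymus CD244+ (-1.14 ± 0.22, limma adjusted p = 3.85e-05), and 10.2 ± 3.68 in lung CD244-, against 23.2 ± 0.859 in thymus CD244- (-1.16 ± 0.22, limma adjusted p = 5.28e-05). S100a11 averaged 7.88 ± 2.42 in lung CD244+, against 16.6 ± 0.808 in thymus CD244+ (-1.02 ± 0.24, limma adjusted p = 0.000969), and 5.03 ± 0.433 in lung CD244-, against 20.8 ± 2.22 in thymus CD244- (-1.85 ± 0.24, limma adjusted p = 3.41e-09). Lbr was also lower in lung CD244+ than thymus CD244+ (-1.0 ± 0.35, limma adjusted p = 0.0384). That made 3 of the 24 lower in lung in CD244+ cells (9.61% of all genes tested) and 2 in CD244- cells (8.52%). In either fraction 0 of the 24 were higher in lung, where 5.27% of all genes were in CD244+ and 2.18% in CD244- cells. With every library set to one total S100a10 still passed in both fractions (limma adjusted p of 0.0321 in CD244+ and 0.0439 in CD244- cells) and Lbr did not. S100a11 passed under that total in CD244- cells, where it also passed in edgeR and DESeq2, and not in CD244+ cells (limma adjusted p = 0.125). In edgeR and DESeq2 0 of these 3 genes passed in CD244+ cells, and S100a10 passed in CD244- cells in edgeR but not in DESeq2 (adjusted p = 0.136). Scaling to T cell receptor genes left S100a11 in CD244- cells as the one of these calls that passed. Anxa2, whose protein pairs with S100A10, had log2 differences of 0.57 ± 0.35 and -0.19 ± 0.35 between lung and thymus in CD244+ and CD244- cells. For a CD244 difference that itself differed between lung and thymus, 0 of the 24 relatives passed in limma, 0 of 8 tested in edgeR and 0 of 38 in DESeq2 (644 of 5138 genes at an unadjusted p under 0.05 in limma).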

How the data were processed

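RNA from 12 libraries of 100 sorted cells was measured by oligo-dT primed, molecularly barcoded sequencing, per the labels' protocols. Reads were mapped with STAR to mm10, per the submitters' processing notes; the counting step, annotation and scaling formula are not given in the sources used here. The deposited values are a signal made by the authors: molecules times a constant of each library, with 94.3% to 95.9% of nonzero values whole multiples of it (tolerance 1e-06). Totals were 19342.9 units in lung and 26890.5 in thymus libraries, and molecules per library ran from 29696 to 71789.

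Genes with a value over 1 in at least 3 libraries (5138) were fitted with limma 3.58.1 (trend and robust) in R 4.3.3 on log2(value + 1), over 4 groups of 3, with Benjamini-Hochberg adjustment over all genes at 0.05. The fit was also run on simulated data with the same spread in every group. Lung CD244+ replicates spread more than the other groups, so nothing about the lung comparisons is read from that run. As alternatives, edgeR 4.0.16 and DESeq2 1.42.0 were run on recovered molecules of the 9 libraries in which the smallest value is 1 molecule. Lung CD244+ library 2, thymus CD244+ library 1 and thymus CD244- library 2 were left out of both. On the 9 libraries, edgeR called 172 genes in lung, 12 in thymus, 293 and 222 between tissues in CD244+ and CD244- cells and 22 for their interaction, of 1154 tested. Ratios of molecules have exact 95% binomial intervals. The 9 genes, the marker lists and the relatives list were chosen with earlier results of these data known. All 9 genes are named; of the relatives, those past the threshold, at most 6 per comparison; and for each of the 9 genes, the 3 nearest genes.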

Additional observations from a re-analysis of the deposited data

How the results depend on the processing

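Directions of the CD244 differences within lung and within thymus stayed the same in every alternative in which a gene was tested. EdgeR did not test Lgals3 or Lmna, and Lmna was at 0 in every thymus library and dropped out of the filter under the stricter filter, with the thymus libraries alone and when a lung CD244+ library was left out. The median of the 9 genes in lung (1.27) was 2.33 with scaling to T cell receptor genes, which moved the median of all genes to 0.69, 0.86 with a pseudocount of 5, 1.41 in edgeR, 1.45 in DESeq2, 1.06 with lung CD244+ libraries 2 and 3 both left out (library 1 alone, added after the data were seen), and 1.15 to 1.33 with 1 library left out. In thymus (0.77) it was 0.95 with scaling to T cell receptor genes, 0.94 with the stricter filter, with the thymus libraries alone and with library 1 alone, 0.59 with a pseudocount of 5, 1.18 in edgeR and 1.12 in DESeq2, and 0.66 to 0.94 with 1 library left out. For lung minus thymus in CD244+ cells (0.25) it was 0.48 with quantile normalization, 0.68 with one common total, 1.39 with T cell receptor scaling, 0.078 with the stricter filter, 0.67 in DESeq2 and -0.18 with library 1 alone. It was -0.0186 (without lung CD244+ library 2) to 0.31 with 1 library left out. In CD244- cells (-0.49) it was -0.24, -0.083 and -0.22 under the same 3 scalings, -0.27 with a pseudocount of 5, -0.0057 in edgeR and -0.046 in DESeq2, and -0.53 to -0.28 with 1 library left out. For the difference between the tissues' CD244 contrasts (0.47) it was 1.35 with T cell receptor scaling, 0.23 in edgeR and 0.19 with library 1 alone, and 0.22 to 0.63 with 1 library left out. T cell receptor scaling, which put the median of all genes at 0.48 for lung minus thymus in CD244+ cells, against -0.27, turned Ahnak to 0.54 and Efhd2 to 0.32, and Anxa6 and Crip1 also lay above 0. Relatives past the threshold in lung (4) numbered 10 with T cell receptor scaling, 2 with the stricter filter, 1 in edgeR, 0 in DESeq2 and 0 with library 1 alone, and 0 to 4 with 1 library left out. For lung against thymus in CD244+ cells (3) there were 5 with T cell receptor scaling, 6 with no filter, 0 in edgeR, 0 in DESeq2 and 0 with library 1 alone, and 2 to 4 with 1 library left out. In CD244- cells (2) there was 1 with T cell receptor scaling and 1 in DESeq2, and 2 to 3 with 1 library left out. For the interaction (0) there was 1 with T cell receptor scaling, and 0 to 1. In thymus 0 passed throughout. The thymus value of 0.94 and the 0.078 are the medians of the 8 genes other than Lmna in the main values, since Lmna was below the filter there. Other medians also rest on fewer genes. Those with library 1 alone, or with a lung CD244+ library left out, are of the 8 genes without Lmna, and those in edgeR are of 7. For lung minus thymus in CD244+ cells, the -0.18 and -0.0186 therefore stand beside 0.078 for the same 8 genes. Such moves include the change in the set of genes, and the cause of what remains was not tested. With the replicate number as a block the members' count in thymus was 2 in place of 4 and the medians stayed at 1.27, 0.77, 0.25, -0.49 and 0.47. Correlations of deviations were -0.028 to 0.016 between same-numbered libraries and -0.039 to 0.026 between others. The deviations were close to sampling noise in all groups but lung CD244+, so this cannot show whether the numbers pair the samples. Genes called in lung, 288 higher and 145 lower, became 1692 and 16 with T cell receptor scaling. For lung minus thymus in CD244+ cells 271 and 494 became 362 and 206 with one common total, and in CD244- cells 112 and 438 became 161 and 150.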
